A study of Homo sapiens with 6 samples.

Results

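Aminoacyl-tRNA synthetases, the enzymes that load each amino acid onto its tRNA, were examined in K562 cells after inhibition of EZH2. The members were chosen by gene name: 39 genes of the 60671 in the count files, of which 23 made up the cytosolic side and 16 the mitochondrial side. The cytosolic side held 20 synthetases and 3 scaffold proteins (AIMP1, AIMP2 and EEF1E1). The mitochondrial side held the synthetases whose symbols end in 2. Each symbol matched exactly 1 Ensembl identifier, and 38 of the 39 members passed the filter on low counts. VARS2, the mitochondrial valyl-tRNA synthetase, did not: it had 0 reads in all 6 libraries, which allows up to 3 counts per library, and ENSG00000288473, annotated on the same strand, has exons that overlap its last 500 bases. The aspartyl-tRNA synthetases were not among the chosen names.

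K562 is a human chronic myeloid leukemia line, and the cells used here were a single clone carrying a doxycycline-inducible Flag-NLS-M.CviPI-Lamin-B1, a GpC methyltransferase joined to a protein of the nuclear lamina. The 3 EZH2i libraries came from cells given 1 µM GSK343, an inhibitor of the H3K27 methyltransferase EZH2, for 72 h. The 3 DMSO libraries came from cells given 0.1% DMSO for the same time, and both groups received 1 µg/mL doxycycline for the final 24 h. RNA was read by QuantSeq 3′ mRNA sequencing, in which reads come from the end of the transcript that carries the poly(A) tail. Levels are therefore given as CPM, reads scaled to the library's total and TMM factor, and compared between libraries within a gene, not between genes. Because 1 clone was used, the values describe that clone.

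Human cells keep separate sets of synthetases for the cytosol and for mitochondria, all encoded in the nucleus. GARS1 and KARS1 are exceptions, since each serves both compartments. In the cytosol, a group of synthetases is held together with AIMP1, AIMP2 and EEF1E1 as the multisynthetase complex. Many cytosolic synthetase genes are known targets of ATF4, a transcription factor of the amino acid response, which binds the C/EBP-ATF response element together with C/EBP partners.

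Promoter windows from RefSeq (GRCh38.p14), running from 250 bases before to 50 bases after each gene start, were available for 33 of the 39 members. LARS1, VARS1, YARS1, TARS3, AARS2 and VARS2 were not in that table. The element was searched as TGATGNAAN on both strands. It was found in 7 of the 27 windows of the cytosolic side, 1 each for AARS1, CARS1, GARS1, IARS1, MARS1, NARS1 and TARS1. On the mitochondrial side 1 of 18 windows held it, that of YARS2, and 3.611% of all 35116 windows did. The shorter TTGCATCA, which overlaps it, was in 6 cytosolic windows, in 0 mitochondrial windows and in 0.866% of all windows. The promoters of the 4 members called lower after EZH2i (MARS1, IARS1, EEF1E1 and IARS2) are shown so that those with and without the element can be compared, up to 29 bases past the gene start. Capitals mark the element in MARS1 (chr12:57487818-57488097, plus strand) and IARS1 (chr9:92293668-92293947, minus strand), as read on the gene's strand.
MARS1: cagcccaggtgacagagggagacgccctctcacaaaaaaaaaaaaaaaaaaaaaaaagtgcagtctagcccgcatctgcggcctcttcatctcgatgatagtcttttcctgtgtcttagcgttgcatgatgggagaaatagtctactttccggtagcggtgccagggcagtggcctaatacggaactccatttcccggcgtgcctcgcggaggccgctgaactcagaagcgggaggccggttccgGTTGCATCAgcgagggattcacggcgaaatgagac
IARS1: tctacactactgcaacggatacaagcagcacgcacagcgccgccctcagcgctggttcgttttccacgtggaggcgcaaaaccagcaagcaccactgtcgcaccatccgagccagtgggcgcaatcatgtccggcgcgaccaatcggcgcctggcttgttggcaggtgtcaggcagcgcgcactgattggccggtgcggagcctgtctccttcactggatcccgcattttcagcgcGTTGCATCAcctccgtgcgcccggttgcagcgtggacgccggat

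The windows of EEF1E1 (chr6:8102519-8102798, minus strand) and IARS2 (chr1:220093882-220094161, plus strand) held no match to the element. In these capitals mark CCAAT on either strand, a common promoter box. The IARS1 window also held CCAAT, which is not marked above.
EEF1E1: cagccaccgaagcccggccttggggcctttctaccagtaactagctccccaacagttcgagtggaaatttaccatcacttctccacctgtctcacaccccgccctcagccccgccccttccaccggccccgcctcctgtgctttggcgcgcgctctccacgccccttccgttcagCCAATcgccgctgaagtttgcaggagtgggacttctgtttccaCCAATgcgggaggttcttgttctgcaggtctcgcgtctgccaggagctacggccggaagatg
IARS2: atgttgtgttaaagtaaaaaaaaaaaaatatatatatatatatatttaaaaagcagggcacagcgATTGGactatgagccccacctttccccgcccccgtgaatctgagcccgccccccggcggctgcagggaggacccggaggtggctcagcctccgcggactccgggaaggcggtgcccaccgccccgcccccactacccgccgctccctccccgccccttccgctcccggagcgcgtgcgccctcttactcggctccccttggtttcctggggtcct
CCAAT was in 12 of the 27 cytosolic windows and in 11 of the 18 mitochondrial windows, and in 34.614% of all windows. CACGTG, the E-box, was in 2 cytosolic windows (AIMP2 and IARS1), in 4 mitochondrial windows (CARS2, EARS2 and MARS2) and in 7.256% of all. GCATGCGC, part of the site of the mitochondrial gene regulator NRF1, was in 0 cytosolic windows, in those of MARS2 and YARS2 on the mitochondrial side and in 3.053% of all.

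The other 6 windows with the response element are shown as short stretches with the element in capitals, to compare its letters. They lie at chr16:70289656-70289724 (AARS1, minus strand), chr11:3057394-3057456 (CARS1, minus), chr7:30594814-30594882 (GARS1, plus), chr18:57621807-57621852 (NARS1, minus), chr5:33440936-33440994 (TARS1, plus) and chr12:32756056-32756124 (YARS2, minus).
AARS1: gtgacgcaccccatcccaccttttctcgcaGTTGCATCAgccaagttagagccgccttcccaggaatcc
CARS1: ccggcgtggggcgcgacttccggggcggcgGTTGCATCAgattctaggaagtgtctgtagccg
GARS1: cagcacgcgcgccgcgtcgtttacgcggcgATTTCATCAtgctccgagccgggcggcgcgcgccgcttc
NARS1: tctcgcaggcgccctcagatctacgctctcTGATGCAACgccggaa
TARS1: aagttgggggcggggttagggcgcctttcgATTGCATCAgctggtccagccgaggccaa
YARS2: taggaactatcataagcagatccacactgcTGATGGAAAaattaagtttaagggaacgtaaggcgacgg
Read on the strand of the motif, AARS1, CARS1, IARS1, MARS1 and NARS1 shared TGATGCAAC. TARS1 carried TGATGCAAT, GARS1 TGATGAAAT and YARS2 TGATGGAAA. In MARS1 the match ran from base -5 to 3 around the gene start and in IARS1 from -14 to -6, while in AARS1 it began at -188. A match is a run of letters only, and binding was not measured.

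**Figure D1:**
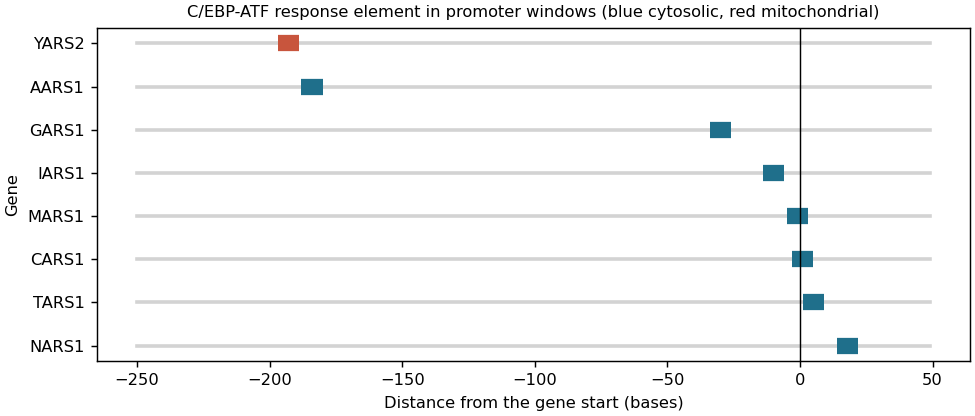
Position of the C/EBP-ATF response element (boxes) in the promoter windows (gray lines) of the 8 members that hold it, in bases from the RefSeq gene start at 0; blue is cytosolic and red mitochondrial. In 6 of the 7 cytosolic members the element lay within 40 bases of the start, and in AARS1 and YARS2 it lay further upstream.

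Most members of the cytosolic side had a log2 fold change below 0 after EZH2 inhibition, and few passed the test. Of 23 members, 21 had a log2 fold change (EZH2i against DMSO) below 0, as did 50.0% of the 12364 genes tested. The median was -0.19, a decrease of 12.1%, beside a median of -0.00021 over all genes tested. With edgeR, at a Benjamini-Hochberg adjusted p under 0.05 over all genes tested, 3 members were lower and 0 were higher: MARS1, IARS1 and EEF1E1. Of all genes tested, 0.922% were called lower and 3.34% higher. On the mitochondrial side 10 of 15 tested members were below 0 with a median of -0.10 (leaving out DMSO replicate 3 gave -0.037 and leaving out EZH2i replicate 3 gave -0.06), and 1 member, IARS2, was called lower and 0 higher. At an unadjusted p under 0.05, 8 cytosolic and 2 mitochondrial members were lower and 0 were higher, while of the 12364 genes tested 1015 were lower and 1351 higher. All 3 EZH2i libraries lay below all 3 DMSO libraries in 11 cytosolic and 3 mitochondrial members, against 11.1% of all genes tested. In 0 members did they all lie above, against 13.3%. Whether the 2 sides differed from each other was not tested. In bulk RNA, a change in every cell and a change in the make-up of the culture cannot be told apart.

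**Figure D2:**
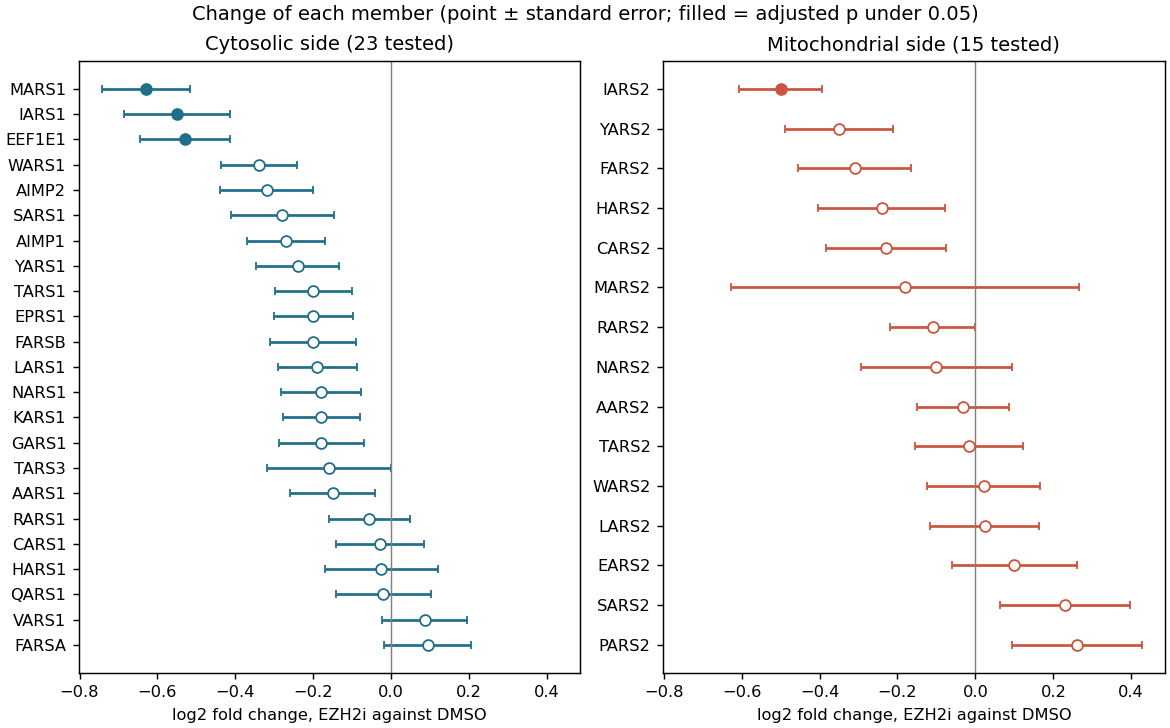
Log2 fold change of each tested member (EZH2i against DMSO; 3 libraries each), with its standard error as a bar; filled points passed the adjusted p threshold of 0.05. In the cytosolic panel 21 of 23 points lie left of 0, and in the mitochondrial panel 10 of 15 do.

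MARS1 is the cytosolic methionyl-tRNA synthetase, which charges both initiator and elongator tRNA (ENSG00000166986, chr12:57475445-57517569, plus strand). Its level was 273, 356 and 305 CPM in DMSO replicates 1, 2 and 3, and 188, 200.5 and 218 CPM in EZH2i replicates 1, 2 and 3. The groups did not overlap. Its mean fell from 311 ± 41.9 to 202 ± 15.2 CPM (SD, n = 3), a log2 fold change of -0.63 ± 0.11 (SE; edgeR adjusted p = 0.00413). It was called in all 6 fits that left out 1 library, with adjusted p from 0.00416 to 0.0348. Exons of DDIT3 and ARHGAP9 lie over MARS1 on the opposite strand, those of DDIT3 within its last 500 bases, and the strand setting of the counting is not given in the sources used here. DDIT3, a stress transcription factor gene, had 30, 27.7 and 30.5 CPM in DMSO and 23.7, 22.9 and 15.0 CPM in EZH2i (log2 fold change -0.51, edgeR adjusted p = 0.0864). The part of DDIT3 reads in the MARS1 counts was not tested.

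The 3 scaffold proteins hold the complex together, and all of them were lower in every EZH2i library than in any DMSO library, as were 11.1% of all genes tested. EEF1E1, also called AIMP3, binds MARS1 in the complex (ENSG00000124802, chr6:8073360-8102559, minus strand). It had 114, 120.2 and 101 CPM in DMSO replicates 1, 2 and 3, and 67.6, 77.9 and 86.4 CPM in EZH2i replicates 1, 2 and 3. EEF1E1 fell from 112 ± 9.76 to 77.3 ± 9.41 CPM (SD, n = 3), a log2 fold change of -0.53 ± 0.12 (SE; edgeR adjusted p = 0.0152). Its call was lost without DMSO replicate 1 (adjusted p = 0.0729) or DMSO replicate 2 (0.0937) and held in the other 4 such fits. A readthrough gene, EEF1E1-BLOC1S5, shares its strand and exons.

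AIMP2, the scaffold on which the other parts assemble, had 66.8, 75.6 and 66.4 CPM in DMSO and 47.9, 58.0 and 61.4 CPM in EZH2i. Its log2 fold change of -0.32 ± 0.12 (SE) did not pass the test (edgeR adjusted p = 0.143), and exons of EIF2AK1 lie over its last 500 bases on the opposite strand. AIMP1 had 129, 129 and 132 CPM in DMSO and 117, 103 and 103 CPM in EZH2i, with a log2 fold change of -0.27 ± 0.10 (edgeR adjusted p = 0.148). Summed, the 3 scaffold genes had 311 ± 12.6 CPM in DMSO and 241 ± 9.47 CPM in EZH2i (SD, n = 3), 22.6% less.

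IARS1, the cytosolic isoleucyl-tRNA synthetase and a part of the complex (ENSG00000196305, chr9:92210207-92293854, minus strand), had 75.4, 75.3 and 53.2 CPM in DMSO replicates 1, 2 and 3. In EZH2i replicates 1, 2 and 3 it had 43.3, 47.4 and 47.8 CPM. DMSO replicate 3 lay closest to the EZH2i libraries, and the groups did not overlap. IARS1 fell from 68.0 ± 12.8 to 46.2 ± 2.48 CPM (SD, n = 3), a log2 fold change of -0.55 ± 0.14 (SE; edgeR adjusted p = 0.0281). The call was lost without DMSO replicate 1 (adjusted p = 0.136), without DMSO replicate 2 (0.145) or without EZH2i replicate 2 (0.0506). Exons of no other annotated gene lie over it.

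IARS2 charges the same amino acid in mitochondria (ENSG00000067704, chr1:220094132-220148041, plus strand, with no other gene's exons over it). It had 117, 117 and 105 CPM in DMSO replicates 1, 2 and 3, and 73.8, 86.0 and 79.2 CPM in EZH2i replicates 1, 2 and 3. The groups did not overlap, and isoleucine was the only amino acid for which the cytosolic and the mitochondrial enzyme were both called. IARS2 fell from 113 ± 6.89 to 79.7 ± 6.10 CPM (SD, n = 3), a log2 fold change of -0.50 ± 0.11 (SE; edgeR adjusted p = 0.0129). Without DMSO replicate 1 or 2 its adjusted p was 0.0717 and 0.0678, and it was called in the other 4 such fits. The ratio of IARS1 to IARS2 within a library was 0.644, 0.646 and 0.508 in DMSO and 0.587, 0.551 and 0.604 in EZH2i, so the groups overlapped in this ratio. MARS2, the mitochondrial partner of MARS1, had only 8 to 17 reads per library (log2 fold change -0.18 ± 0.45, edgeR adjusted p = 0.871), so a change of the size seen in MARS1 was not detectable at this depth.

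**Figure D3:**
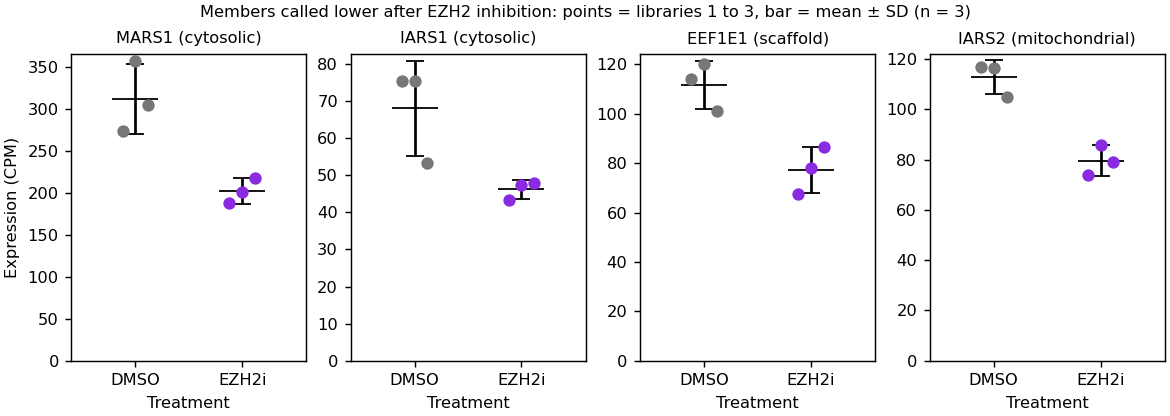
CPM of the 4 members called lower, with 1 point per library, the mean as a horizontal line and the SD as a bar (n = 3 per group; each axis starts at 0). All EZH2i points lie below all DMSO points in each panel, and DMSO replicate 3 is the lowest DMSO point of IARS1, EEF1E1 and IARS2.

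The complex as a whole holds 7 of the synthetases besides the scaffold. All 10 of its genes had a log2 fold change below 0, 3 of them were called lower, 7 did not overlap between groups, and the median was -0.24. Over all genes tested the shares were 50.0% below 0, 0.922% called lower and 11.1% with every EZH2i library below every DMSO library. Its 7 synthetases alone had a median of -0.19, and the 13 cytosolic synthetases outside it a median of -0.18 with 0 called. EPRS1, the glutamyl-prolyl enzyme, had 893, 829 and 876 CPM in DMSO and 832, 729.8 and 693 CPM in EZH2i (log2 fold change -0.20 ± 0.10, edgeR adjusted p = 0.288). LARS1, the leucyl enzyme and a sensor of leucine, had 573, 509 and 510.3 CPM in DMSO and 471, 493.5 and 435 CPM in EZH2i (-0.19 ± 0.10, edgeR adjusted p = 0.328). QARS1 and RARS1, the glutaminyl and arginyl enzymes, lay nearest to 0 in the complex, at -0.02 and -0.06. 

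By enzyme fold, the 9 class I cytosolic synthetases had a median log2 fold change of -0.19 with 2 called, and the 10 class II enzymes a median of -0.18 with 0 called. EPRS1 joins an enzyme of each class and was counted in neither. On the mitochondrial side the 8 tested class I enzymes had a median of -0.15 with 1 called and the 7 class II enzymes a median of -0.03 with 0 called. Over all genes tested 0.922% were called lower and 3.34% higher. No difference between classes was tested.

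Outside the complex, WARS1, the tryptophanyl-tRNA synthetase, which interferon is known to induce, came closest to the threshold. It had 385, 369 and 383 CPM in DMSO and 321, 294 and 282 CPM in EZH2i, with no overlap (log2 fold change -0.34 ± 0.10, edgeR adjusted p = 0.058). Without EZH2i replicate 1 it was called (adjusted p = 0.0173). Exons of ENSG00000258666 lie over its last 500 bases on the opposite strand. SARS1, the seryl enzyme, had 578, 614 and 637 CPM in DMSO and 634, 458 and 412 CPM in EZH2i (-0.28 ± 0.13, edgeR adjusted p = 0.254). EZH2i replicate 1 lay inside the DMSO range and the other two far below it, and without that library SARS1 was called (-0.48, adjusted p = 0.00528). YARS1, the tyrosyl enzyme, had 448, 441 and 456 CPM in DMSO and 433, 353 and 352 CPM in EZH2i (-0.24 ± 0.11, edgeR adjusted p = 0.219, and 0.034 without EZH2i replicate 1). Its groups did not overlap, and EZH2i replicate 1 lay just below the DMSO range.

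TARS1, the threonyl enzyme, had 937, 889 and 858 CPM in DMSO and 838, 763 and 739 CPM in EZH2i, with no overlap (log2 fold change -0.20 ± 0.10, edgeR adjusted p = 0.288). Both dual enzymes had a log2 fold change of -0.18. KARS1, the lysyl enzyme, also in the complex, had 414, 369 and 379 CPM in DMSO against 336, 363 and 328 CPM in EZH2i (edgeR adjusted p = 0.337). GARS1, the glycyl enzyme, had 400.4, 430.0 and 435 CPM against 429, 337 and 350.1 CPM (edgeR adjusted p = 0.381). FARSB, NARS1, TARS3 and AARS1 lay between -0.20 and -0.15, and CARS1 and HARS1 between -0.03 and -0.02, all with adjusted p of 0.329 or more. The exons of HARS1 and HARS2, which start head to head on chromosome 5, overlap each other.

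The 2 cytosolic members with the highest values were not called. FARSA, the alpha subunit of phenylalanyl-tRNA synthetase, had 217, 183 and 206 CPM in DMSO and 223, 236 and 187 CPM in EZH2i (log2 fold change 0.09 ± 0.11, edgeR adjusted p = 0.703). Its partner subunit FARSB had 106, 102 and 125 CPM against 101, 99.5 and 88.7 CPM (-0.20 ± 0.11, edgeR adjusted p = 0.329). The values of the 2 subunits of 1 enzyme lay on opposite sides of 0, and the difference was not tested. VARS1, the valyl enzyme, had 213.5, 210.1 and 227 CPM in DMSO and 265, 218 and 207 CPM in EZH2i (0.09 ± 0.11, edgeR adjusted p = 0.727). Leaving out EZH2i replicate 1 turned its log2 fold change to -0.025.

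The EZH2i libraries did not share 1 profile across the cytosolic side. Against the DMSO mean of each member, the median log2 difference of the 23 members was -0.12, -0.22 and -0.27 in EZH2i replicates 1, 2 and 3. The number of members below all 3 DMSO libraries was 12, 18 and 19 of 23 in the same order. EZH2i replicate 1 was the highest of the 3 EZH2i libraries in 15 members, among them SARS1, WARS1, YARS1 and EPRS1. It was the lowest in 5, and MARS1, IARS1, EEF1E1 and AIMP2 were among those. EZH2i replicate 3 was the lowest in 12 and lay below the DMSO mean in 23 of 23. That library also had the most reads on no gene (12.7%, against 7.43% to 8.51% in the others). Leaving it out gave a cytosolic median log2 fold change of -0.15. The part of the read composition in the members' values was not tested. Over all genes tested, the median log2 differences lay within 0.02 of 0, and 32.4%, 28.9% and 29.3% of genes lay below all DMSO libraries. The larger distance of EZH2i replicate 1 was not particular to these members. Across genes, chi-square per degree of freedom against sampling noise was 10.8 for EZH2i replicates 1 and 2. It was 12.7 for replicates 1 and 3 and 4.56 for replicates 2 and 3. For the 15 mitochondrial members the medians were -0.04, -0.12 and -0.14, with 4, 9 and 7 below all DMSO libraries.

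**Figure D4:**
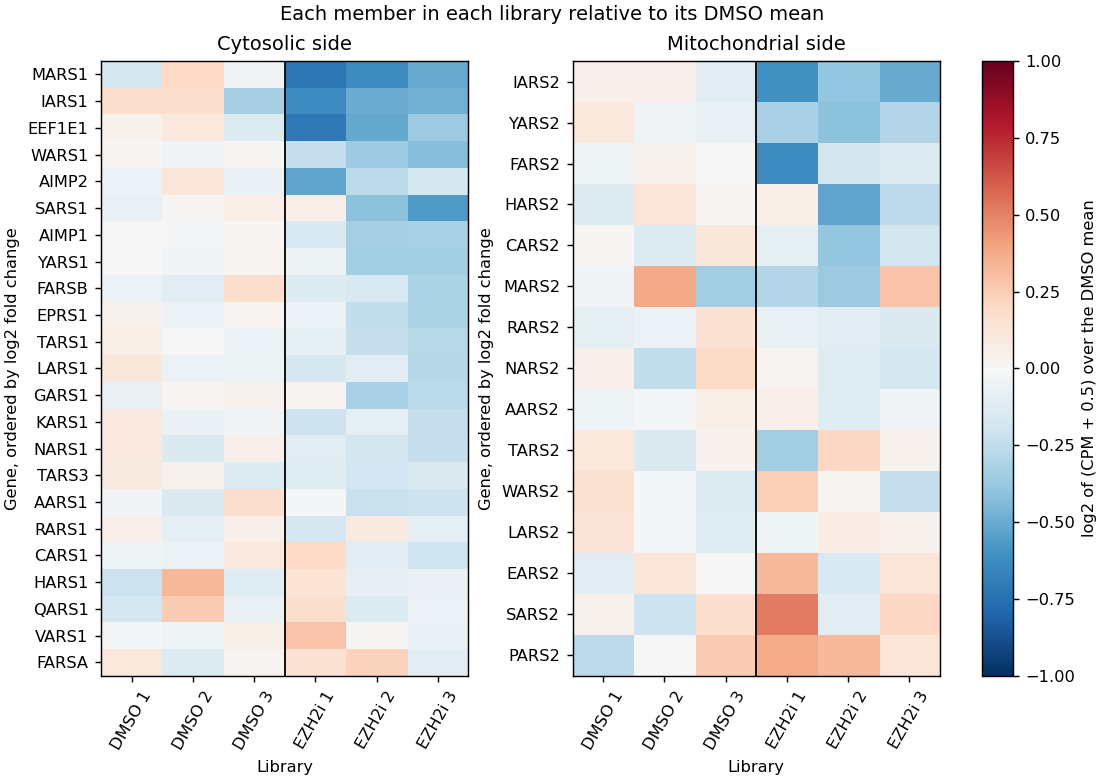
Each tested member in each library as the log2 of CPM + 0.5 over its DMSO mean (blue lower, red higher), genes ordered by log2 fold change within each side. The first EZH2i column is paler or red for many cytosolic members where the other two EZH2i columns are blue, and the darkest of the 3 for MARS1, IARS1, EEF1E1 and AIMP2.

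After IARS2, the lowest mitochondrial values were those of YARS2 and FARS2, the mitochondrial tyrosyl and phenylalanyl enzymes, and neither passed the test. YARS2 had 26.4, 23.9 and 23.3 CPM in DMSO and 19.5, 18.3 and 19.9 CPM in EZH2i (log2 fold change -0.35 ± 0.14, edgeR adjusted p = 0.169). FARS2 had 29.9, 31.8 and 30.8 CPM in DMSO and 19.8, 27.1 and 27.9 CPM in EZH2i (-0.31 ± 0.14, edgeR adjusted p = 0.261). Neither overlapped between groups. The highest values were those of PARS2, the prolyl enzyme, and SARS2, the seryl enzyme. PARS2 had 12.4, 15.0 and 17.8 CPM in DMSO and 19.4, 18.8 and 16.2 CPM in EZH2i (0.26 ± 0.17, edgeR adjusted p = 0.418). SARS2 had 22.5, 18.9 and 24.5 CPM against 31.6, 20.3 and 25.4 CPM (0.23 ± 0.17, edgeR adjusted p = 0.491), and the groups of both genes overlapped. The remaining mitochondrial members lay between -0.24 (HARS2) and 0.10 (EARS2).

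Summed over the 23 cytosolic members, expression was 7588, 7398 and 7638 CPM in DMSO replicates 1, 2 and 3 and 7130, 6447 and 6163 CPM in EZH2i replicates 1, 2 and 3. The mean was 7541 ± 126 CPM in DMSO and 6580 ± 497 CPM in EZH2i (SD, n = 3), 12.8% less. Without TARS1, the most abundant in reads, the sum was 6651, 6509 and 6780 CPM against 6292, 5683 and 5424 CPM, and the groups still did not overlap. The mitochondrial sum was 484, 472.5 and 483.5 CPM in DMSO and 435, 431 and 427 CPM in EZH2i, 10.2% less (480 ± 6.35 against 431 ± 3.69 CPM; SD, n = 3). This separation rested on IARS2: without it the sum was 367, 356 and 379 CPM against 361, 345.0 and 348 CPM, and the groups overlapped. The ratio of the cytosolic to the mitochondrial sum was 15.7, 15.7 and 15.8 in DMSO and 16.4, 15.0 and 14.4 in EZH2i, so the EZH2i libraries lay on both sides of the DMSO values. Without TARS1 and IARS2 the ratio was 18.1, 18.3 and 17.9 in DMSO and 17.4, 16.5 and 15.6 in EZH2i, and every EZH2i library lay below every DMSO library. Leaving out IARS2, the only called mitochondrial member, which fell by 29.3%, by itself moves the EZH2i ratios down against the DMSO ratios. The called MARS1, IARS1 and EEF1E1 stayed in the cytosolic sum. These sums come from the reads of unlike genes and are compared only between libraries.

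**Figure D5:**
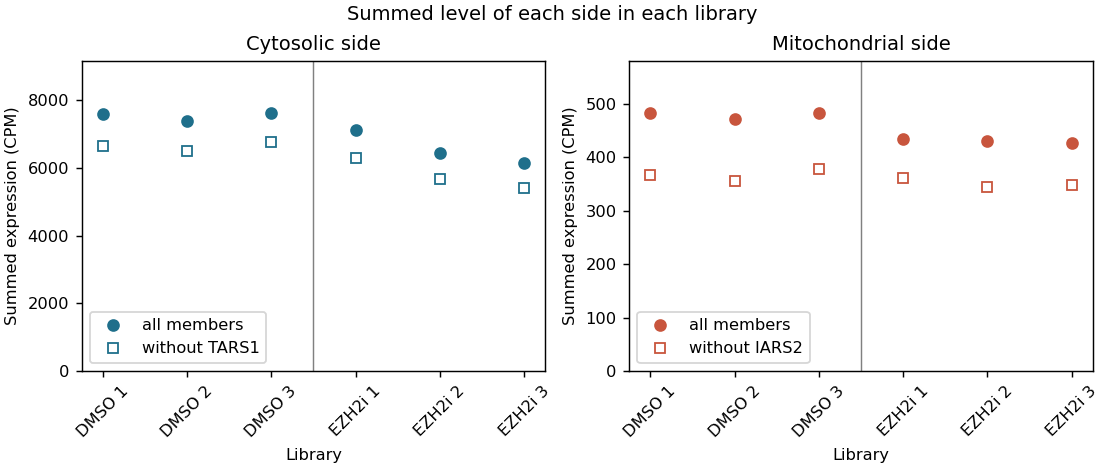
Summed CPM of the cytosolic and of the mitochondrial members in each library (filled circles) and without the most abundant member of each side (open squares: without TARS1, without IARS2); each axis starts at 0. Without IARS2, EZH2i replicate 1 (361 CPM) lies inside the DMSO range of 356 to 379 CPM.

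For 12 amino acids both the cytosolic and the mitochondrial enzyme were tested. The cytosolic member had the lower log2 fold change in 8 pairs and the mitochondrial member in 4 (cysteine, histidine, arginine and tyrosine). The ratio of the cytosolic to the mitochondrial member separated the groups in 3 pairs, lower in EZH2i in each, and overlapped in 9. For serine it was 25.7, 32.5 and 26 in DMSO and 20.1, 22.5 and 16.3 in EZH2i. For tryptophan it was 11.7, 12.7 and 14.3 against 9.23, 9.84 and 11.3. For leucine it was 24.3, 23.8 and 25.8 against 22.6, 21.7 and 19.7. An exact two-sided permutation test of 3 against 3 libraries cannot go below 0.10, and no pair was tested. How often such ratios separate in other gene pairs was not counted, so 3 of 12 has no background share beside it.

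Presence of the response element in the window was set beside the log2 fold changes. The 7 cytosolic members with it had a median log2 fold change of -0.18, with 7 below 0 and 2 called (MARS1 and IARS1). The 12 with a window but no match had a median of -0.20, with 11 below 0 and 1 called (EEF1E1). Over all genes tested 50.0% were below 0 and 0.922% were called lower. The letters TGATGCAAC were shared by MARS1 (-0.63) and IARS1 (-0.55) and also by CARS1 (-0.03), NARS1 (-0.18) and AARS1 (-0.15). YARS2, the mitochondrial member with the element, is given above at -0.35. The difference between these groups of genes was not tested, and this division was chosen after the values had been seen.

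Among the regulators of the amino acid response, 3 of 15 genes were called lower and 0 higher, against 0.922% and 3.34% of all genes tested, and the median log2 fold change was -0.16. ATF4 itself had 585, 547 and 619 CPM in DMSO and 718, 511 and 452 CPM in EZH2i (log2 fold change -0.06 ± 0.14, edgeR adjusted p = 0.862). EZH2i replicate 1 was above and the other two were below the DMSO range. ATF5, a factor related to ATF4, fell from 97.0, 92.5 and 78.6 CPM to 34.3, 32.3 and 29.8 CPM (-1.47 ± 0.12, edgeR adjusted p = 4.77e-06). TRIB3, a pseudokinase and ATF4 target, fell from 151, 134 and 152 CPM to 76.8, 90.9 and 96.4 CPM (-0.73 ± 0.11, edgeR adjusted p = 0.00138). CEBPG, a C/EBP partner of ATF4 at the response element, fell from 68.3, 66.0 and 52.5 CPM to 35.8, 38.2 and 42.8 CPM (-0.68 ± 0.13, edgeR adjusted p = 0.00586, and 0.0502 without DMSO replicate 1). These lists were chosen with results of these data known, so their direction is not independent evidence.

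Other parts of tRNA charging and translation were counted in the same way, beside 0.922% of all genes tested called lower, 3.34% called higher and 50.0% below 0. Of 12 tRNA maturation and charging partners, such as the nuclear tRNA exporter XPOT, 10 were below 0, 0 were called lower or higher, and the median log2 fold change was -0.14. Of 11 mitochondrial tRNA charging partners, 5 were below 0 and 6 above, 0 were called in either direction, and the median was 0.00468. All EZH2i libraries lay above all DMSO libraries in 2 of them and below in 2, against 13.3% and 11.1% of all genes tested. MTFMT, which formylates the mitochondrial initiator tRNA, had 16.4, 16 and 14.3 CPM in DMSO and 9.07, 10.7 and 13.5 CPM in EZH2i (-0.49 ± 0.18, edgeR adjusted p = 0.137). Of the 8 mitochondrial elongation and related factors tested, of 9 listed, 7 were below 0, 0 were called in either direction, and the median was -0.18. Of the 7 cytosolic factors tested, of 8 listed, 5 were below 0, 1 was called lower and 0 higher, and the median was -0.07. The called gene was EEF1B2, a nucleotide exchange subunit of elongation factor 1. It fell from 76.3, 115 and 79.4 CPM to 64.9, 59.5 and 60 CPM (-0.56 ± 0.14, edgeR adjusted p = 0.032), and the call was lost without DMSO replicate 2, EZH2i replicate 2 or EZH2i replicate 3 (adjusted p up to 0.185). EEF1G was listed at 0 reads in every library, and TSFM had 1 read in all.

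Libraries held between 6327544 and 8987768 reads on genes, 63.6% to 67.9% of the reads listed. EZH2i replicate 3 stood apart in reads on no gene (12.7%, against 7.43% to 8.51%). The K562 markers summed to 1072 to 1225 CPM in DMSO and 1227 to 1278 CPM in EZH2i, with 10 of 11 genes tested, and HBE1, an embryonic globin, had at most 0.681 CPM. Of these markers 2 were called higher and 0 lower, both globin genes: HBZ rose from 71.5 ± 5.64 to 159 ± 27.4 CPM (SD, n = 3; log2 fold change 1.15, edgeR adjusted p = 6.14e-05) and HBG2 from 94.3 ± 11.6 to 140.3 ± 29.3 CPM (SD, n = 3; 0.58, edgeR adjusted p = 0.0251). Of 12 markers of other blood or stromal cells, 6 passed the filter, 0 were called lower and 2 were called higher (3.34% of all genes tested), CD3D (58.3 to 69.9 against 81.5 to 99.0 CPM) and COL1A1 (1.25 to 2.16 against 4.06 to 7.88 CPM). EPCAM, an epithelial marker, was not called but did not overlap between groups, with 72.7 to 83.5 CPM in DMSO and 61.2 to 66.6 CPM in EZH2i. The whole list summed to 165 to 175 CPM in DMSO and 178 to 200.3 CPM in EZH2i, and the defining marker MS4A1 had 0 reads throughout. The part of these markers in the members' values was not tested.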

How the data were processed

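QuantSeq 3′ mRNA libraries of 3 DMSO and 3 EZH2i cultures of 1 K562 clone were used. Per the labels and the submitters' processing notes, reads were processed on hg38 with STAR 2.6.0c and HTSeq 0.11.2, and the authors deposited raw counts per Ensembl gene, without normalization or pooling. The strand setting of the counting is not given in the sources used here. A deposited table of the authors' own DESeq2 comparison (fold changes and p-values) was not used.

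Library sizes and tests used the rows of genes only, 63.6% to 67.9% of the reads listed. Of all reads listed, 21.4% to 22.3% had multiple alignments, 2.25% to 2.48% fell on several genes and 7.43% to 12.7% on none. Counts were tested in R 4.3.3 with edgeR 4.0.16 (TMM, a minimum count of 10 in filterByExpr, estimateDisp, glmQLFit with legacy = TRUE, glmQLFTest, two-sided), by treatment alone, with Benjamini-Hochberg adjustment over 12364 genes at 0.05 (common dispersion 0.0129). The standard error is the size of the log2 fold change divided by the square root of F. CPM uses library size times the TMM factor. The fits were tested on simulated data. Replicates of a group always differed beyond sampling noise (chi-square per degree of freedom 4.56 to 12.7). The labels do not tie same-numbered libraries to 1 culture, and p-values measure the spread between these libraries. Counting error alone limits genes of few reads, such as MARS2.

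Symbols, positions and exon overlaps are from GENCODE 44 on GRCh38 (60401 identifiers matched), and promoter sequences are from RefSeq. Protein sequences were not analysed here. The members and lists were chosen with earlier results of these data known. Named with values are called members, the 2 highest and 2 lowest of each side, same-amino-acid partners of called members, dual enzymes, EPRS1, scaffold proteins, called pathway genes and ATF4. WARS1, SARS1, YARS1, LARS1, TARS1, FARSB, FARS2, DDIT3 and MTFMT were named after their values were seen. Alternatives were other normalizations, filters and thresholds, DESeq2 1.42.0, limma-voom (limma 3.58.1), legacy = FALSE, a replicate block, leaving out each library, leaving out members with overlapping exons, and sums without the most abundant member.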

Additional observations from a re-analysis of the deposited data

How the results depend on the processing

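The cytosolic and mitochondrial medians stayed below 0 in every fit run. The 3 cytosolic calls became 4 with DESeq2, with limma-voom and with no filter, 1 at an adjusted p under 0.01, 1 without the members whose exons overlap another gene, and 1 to 6 when a library was left out (1 without DMSO replicate 1 or 2, 6 without EZH2i replicate 1). WARS1 was the added member with DESeq2 (adjusted p = 0.012), limma-voom (0.0479) and no filter (0.0301). The 1 mitochondrial call became 0 at an adjusted p under 0.01 and 0 to 1 with a library left out, as did the 1 call among cytosolic elongation factors. The mitochondrial median of -0.102 ranged from -0.096 to -0.037 with a library left out. The difference of the ratio of summed levels, -0.47, was -1.60 without the most abundant member of each side, which takes the fall of IARS2 out of the mitochondrial sum.

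Deviations of same-numbered libraries from their group means had r of -0.0511, -0.0175 and -0.017. With 3 libraries per group these values cannot show whether same-numbered cultures were set up together. The paper states that each replicate had as many treated as control samples. With a replicate block, 3 cytosolic members, 1 mitochondrial member, 3 regulators and 1 elongation factor were called, and it changed no other call.

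Of the 43 named genes, 13 changed sign in some fit, and 0 of them were called. With library size alone, log2 fold changes were 0.004 (CARS1), 0.013 (HARS1), 0.016 (QARS1), 0.003 (AARS2) and 0.016 (TARS2), and with no filter WARS2 was at -0.001. With a library left out the values ran from -0.156 to 0.048 (CARS1), -0.128 to 0.167 (HARS1), -0.11 to 0.118 (QARS1), -0.134 to 0.002 (RARS1), -0.025 to 0.155 (VARS1), -0.074 to 0.01 (AARS2), -0.018 to 0.226 (EARS2), -0.037 to 0.088 (LARS2), -0.497 to 0.13 (MARS2), -0.224 to 0.01 (NARS2), -0.147 to 0.13 (TARS2), -0.096 to 0.135 (WARS2) and -0.274 to 0.074 (ATF4). The cause was not tested beyond the fewer libraries in these fits. Depth limits MARS2, with 8 to 17 reads per library. The cause of the 0 reads of VARS2 was not tested.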
